A study of Mus musculus with 6 samples.

Results

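The insulin-like growth factors, their receptor and their binding proteins were followed in the aorta of mice on a high fat diet and of mice on regular chow. The members were the probe sets whose single gene symbol in the platform annotation was Igf1, Igf2, Igf1r, Igfbp2, Igfbp3, Igfbp4, Igfbp5, Igfbp6 or Igfbp7, which gave 21 of 22626 probe sets and all 9 genes. None of the 8 genes tested passed the test of the diets, and Igfbp3 was too low to be tested. Of the 21 probe sets 18 had enough signal, and 0 of these 18 had an adjusted p under 0.05 (limma). The estimates were small, with 4 of 18 higher and 14 of 18 lower on the high fat diet and a median log2 fold change of -0.13. Over all probe sets tested, 51.8% were lower, with a median of -0.01. The 14 include 6 probe sets of 1 gene, Igfbp4. They also include Igfbp7 1437804_at, which passed the filter through a high signal in chow replicate 1. The lowest estimates belonged to Igfbp4, the gene with the most probe sets, for which all 6 had a negative log2 fold change.

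The study measured 3 arrays per diet, each from RNA pooled from 3 aortas freed of adventitia and periaortic fat. The high fat mice were C57BL/6J, an inbred strain prone to diet-induced obesity, and were fed for 16 to 18 weeks, from 10 weeks of age in replicates 2 and 3. The label of high fat replicate 1 states no sex and an age of 16 to 20 weeks. If that is the age at collection, it does not match a diet of 16 to 18 weeks begun at 10 weeks of age, so this pool may differ from the chow males in age or sex as well as in diet. The chow mice were C57BL/6J males, 26 to 28 weeks old in replicates 2 and 3, with no age given for replicate 1. High fat replicates 2 and 3 were males. A pool hides the spread between animals, so the p-values measure the spread between pools. RNA of the mixed vessel tissue left after this removal was measured, in which fewer cells of a type and less RNA per cell cannot be told apart.

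Igf1 and Igf2 are secreted growth factors that act through the receptor tyrosine kinase encoded by Igf1r, which signals to cell growth and survival. The binding proteins hold the growth factors in the circulation and in the matrix around cells, and can block or prolong their action. In the vessel wall, smooth muscle cells respond to Igf1 with proliferation, migration and survival, and themselves release binding proteins.

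The defining markers of the aortic media were abundant on all arrays. Acta2, the smooth muscle actin, had signals of 7542 to 9408.2 on the high fat diet and 7181.1 to 9544.8 on chow, and Myh11, the smooth muscle myosin, had 3211.5 to 3833.1 on the high fat diet and 3622.3 to 3920 on chow. Other cell types were present too. Ucp1, the uncoupling protein of brown adipocytes, had 3154.2 to 3664.2 on the high fat diet and 2121.6 to 2723.6 on chow, although periaortic fat had been removed. Median signals lay between 58.4 and 66.6, and high fat replicate 2 had the lowest mean correlation with the other arrays, at 0.95.

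For 3 members a probe set stayed above a signal of 1000 on every array, namely Igfbp4, Igfbp5 and Igfbp7, and the 250 bases before their transcription starts are shown as the promoters of the members that these aortas gave strong signals for. They are RefSeq sequences of build GRCm38.p6, in lower case. Capitals mark the letters TATAAA of the TATA box, found on either strand. They also mark the 6-letter core of the GC box, written GGGCGG, again on either strand, and no matches of these motifs overlap in the windows shown.
Igfbp4 promoter (chr11:99040994-99041243, plus strand): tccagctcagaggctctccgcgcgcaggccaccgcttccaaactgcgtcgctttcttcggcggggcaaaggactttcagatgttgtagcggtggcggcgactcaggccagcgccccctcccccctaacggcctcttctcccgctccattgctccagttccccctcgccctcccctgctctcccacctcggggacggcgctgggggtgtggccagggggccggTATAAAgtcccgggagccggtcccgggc
Igfbp5 promoter (chr1:72874866-72875115, minus strand): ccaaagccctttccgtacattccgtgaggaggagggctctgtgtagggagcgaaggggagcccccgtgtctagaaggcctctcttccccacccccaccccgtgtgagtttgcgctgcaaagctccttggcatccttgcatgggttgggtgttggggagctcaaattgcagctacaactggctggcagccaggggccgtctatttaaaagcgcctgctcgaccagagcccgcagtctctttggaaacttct
Igfbp7 promoter (chr5:77408046-77408295, minus strand): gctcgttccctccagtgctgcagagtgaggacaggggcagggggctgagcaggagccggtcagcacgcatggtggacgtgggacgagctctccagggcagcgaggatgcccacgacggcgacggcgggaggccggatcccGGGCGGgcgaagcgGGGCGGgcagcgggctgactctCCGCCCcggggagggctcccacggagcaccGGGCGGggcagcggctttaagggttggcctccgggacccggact
The Igfbp4 promoter held 1 TATA box match, which began 28 bases before the start, and no GC box match. The Igfbp7 promoter held 4 GC box matches, the nearest 44 bases before the start, and no TATA box match. The Igfbp5 window held neither. Over all 13 promoters listed for the 9 genes, 2 held the TATA box letters and 5 the GC box letters, while 12.4% and 32.7% of all 32851 promoter windows of this length did so. These matches describe the sequence alone.

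Signals were compared as log2(signal + 6), so that a fold change understates the change of low probe sets. Probe sets below a signal of about 40.7 were not tested. Across all genes measured, 10 of the 13575 tested probe sets, 0.0737%, had an adjusted p under 0.05. An unadjusted p under 0.05 was reached by 2 of the 18 members, both lower on the high fat diet, and by 7.03% of all probe sets tested, 3.11% lower. The same 2 members had all 3 high fat pools below all 3 chow pools, as had 6.08% of all probe sets tested, while 12.3% were separated in either direction. Separation in either direction, at 2 of 18, was near that background. Both probe sets read Igfbp4 and so count as 1 gene.

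**Figure D1:**
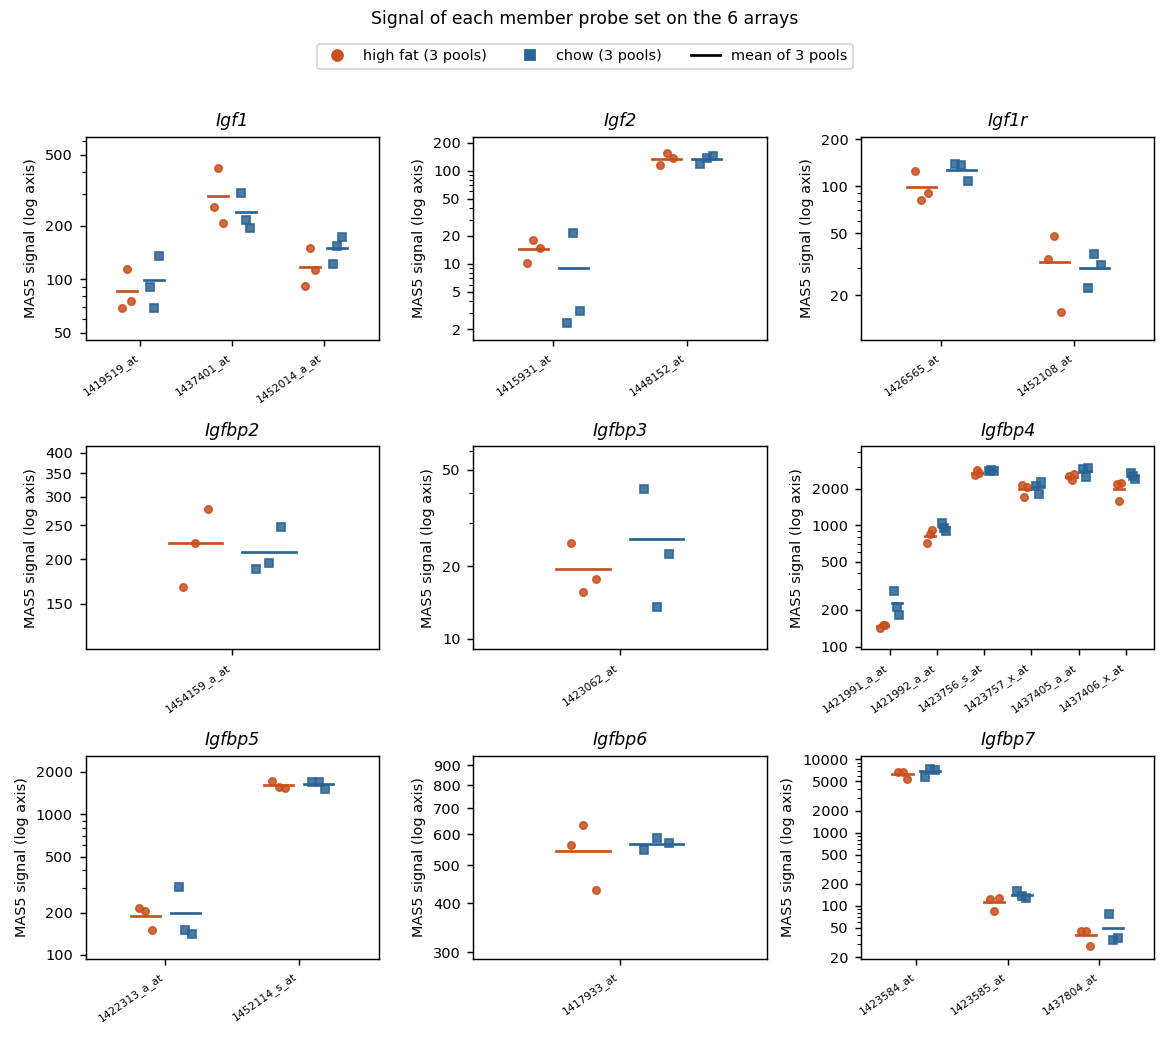
Each panel shows 1 gene, with its probe sets along the horizontal axis and the MAS5 signal on a log axis, and each point is 1 array, circles for high fat left of squares for chow, with a line at the mean of 3 pools. Igfbp4 1421991_a_at and 1437406_x_at are the probe sets whose high fat points all lie below the chow points among the 18 tested.

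Of the ligands, Igf1, the main mediator of growth hormone, was read by 3 probe sets that went different ways. Probe set 1437401_at had signals of 256, 420.8 and 206.3 in the high fat pools and 305.4, 216 and 194.1 in the chow pools. High fat replicate 2 was the highest of the 6, and the diets overlapped. High fat minus chow, the log2 fold change was 0.26 ± 0.26 (SE, adjusted p = 0.867, limma), and it was -0.026 without high fat replicate 2. Probe set 1452014_a_at had 91.6, 149.4 and 112.3 in the high fat pools and 122, 153.8 and 171.9 in the chow pools. High fat replicate 1 was the lowest and chow replicate 3 the highest, again with overlap. Its log2 fold change was -0.34 ± 0.21 (adjusted p = 0.786), and leaving out high fat replicate 1 made it -0.18, while leaving out the second high fat pool made it -0.52. The remaining one, 1419519_at, had 86.2 ± 25 on the high fat diet and 98.5 ± 33.9 on chow (SD, n = 3 each), or -0.17 on the log2 scale (adjusted p = 0.916, limma). With the mean of its probe sets taken, Igf1 differed by -0.08 ± 0.20 on the log2 scale.

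Igf2, the growth factor that is abundant in the fetus and expressed from the paternal allele, had nearly the same mean signal on both diets. Probe set 1448152_at had signals of 115.7, 154.1 and 136.5 in the high fat pools and 119.5, 138.6 and 143.4 in the chow pools. The high fat pools held both the lowest and the highest value. The diets differed by a log2 fold change of 0.01 ± 0.17 (adjusted p = 0.991, limma), with a 95% interval from -0.37 to 0.39. The second Igf2 probe set, 1415931_at, was not tested, with signals of 10.2 to 18.2 on the high fat diet and 2.3 to 21.7 on chow.

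The receptor gene Igf1r had a lower mean on the high fat diet in the probe set tested, 1426565_at. Signals were 125, 81.3 and 90.6 in the high fat pools and 138.3, 136.6 and 108.3 in the chow pools. High fat replicate 1 lay above chow replicate 3, so the diets overlapped. The log2 fold change was -0.36 ± 0.20, with a 95% interval from -0.81 to 0.08 (adjusted p = 0.752, limma). The other probe set, 1452108_at, was not tested, at 15.5 to 48.1 in the high fat pools and 22.3 to 36.7 in the chow pools. The receptors outside the set did not pass either. Igf2r, which carries Igf2 to lysosomes, had 364 ± 47.8 on the high fat diet and 333 ± 55.1 on chow (SD, n = 3 each), which gives a log2 fold change of 0.13 (adjusted p = 0.892, limma). Insr, the insulin receptor, had 67.8 ± 10.4 on the high fat diet and 61.2 ± 15.9 on chow, a log2 fold change of 0.15 (adjusted p = 0.914, limma).

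Among the binding proteins, Igfbp4, which restrains Igf action until it is cleaved by the protease encoded by Pappa, had 6 probe sets. Probe set 1421991_a_at had signals of 142.7, 150.7 and 151.5 in the high fat pools and 287.2, 211.5 and 182.4 in the chow pools. All high fat pools lay below all chow pools, and the chow pools were spread more widely. The log2 fold change was -0.57 ± 0.18, with a 95% interval from -0.98 to -0.16 (unadjusted p = 0.0106, adjusted p = 0.545, limma). Probe set 1437406_x_at had 2190.7, 1569.8 and 2223.8 in the high fat pools and 2682.7, 2560.1 and 2384 in the chow pools. The diets did not overlap here either, and high fat replicate 2 was the lowest. The log2 fold change was -0.37 ± 0.15 (unadjusted p = 0.0320, adjusted p = 0.657, limma), and it was -0.20 without high fat replicate 2.

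The other Igfbp4 probe sets overlapped between the diets. Probe set 1421992_a_at had 710.1, 839.1 and 909.7 in the high fat pools and 1039, 954.1 and 889 in the chow pools, where high fat replicate 3 lay above chow replicate 3. Its log2 fold change was -0.23 ± 0.14 (adjusted p = 0.780, limma). The remaining 1437405_a_at, 1423756_s_at and 1423757_x_at had log2 fold changes of -0.15, -0.06 and -0.06. The probe set with the smallest spread within a diet, 1423756_s_at, had 2698 ± 113 on the high fat diet and 2811 ± 41.6 on chow (SD, n = 3 each), with a 95% interval of its log2 fold change from -0.29 to 0.17. Probe sets of this gene thus gave estimates between -0.57 and -0.06, and their average differed by -0.24 ± 0.11 on the log2 scale (adjusted p = 0.662, limma over 7436 genes). They read 1 gene and are not independent of each other. Suffixes _s_at and _x_at mark probe sets that can bind transcripts of other genes.

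**Figure D2:**
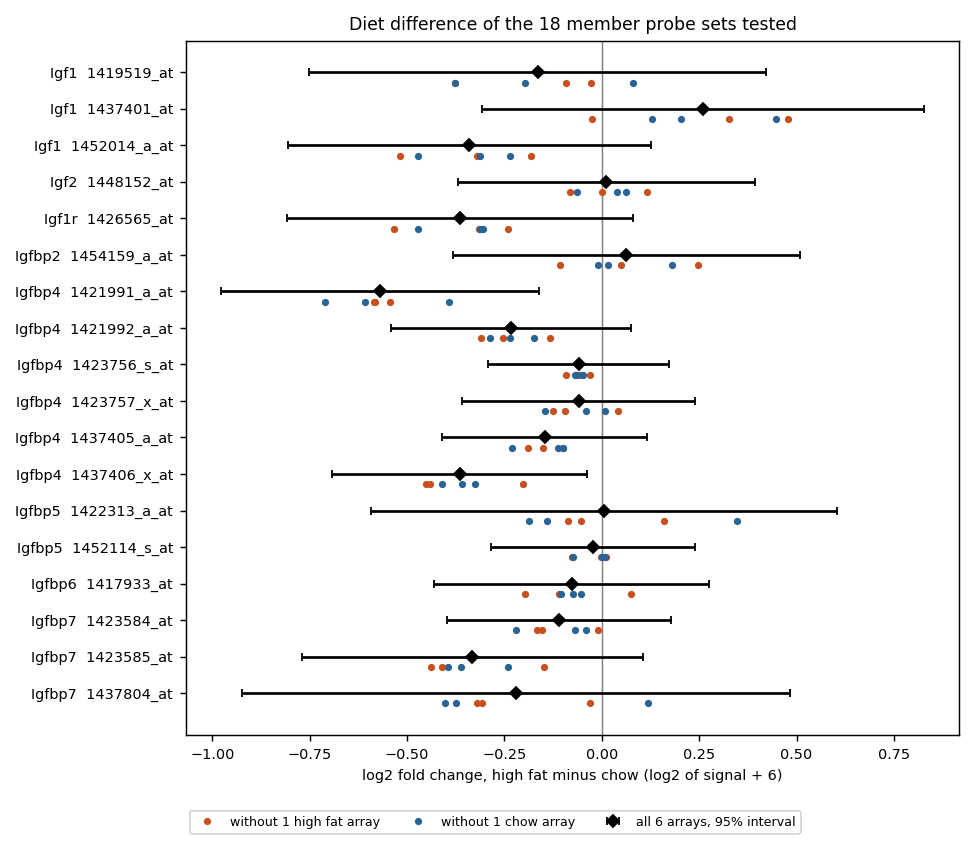
The horizontal axis gives the log2 fold change, high fat minus chow, for each of the 18 member probe sets tested, with diamonds and 95% intervals from all 6 arrays and small points from fits that leave out 1 array. Of the 18 intervals, 16 span 0, and the others are Igfbp4 1421991_a_at and 1437406_x_at.

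Igfbp5, a binding protein that attaches to extracellular matrix, did not differ by a detectable amount. Probe set 1452114_s_at had signals of 1733, 1559.2 and 1531.2 in the high fat pools and 1700.4, 1683.2 and 1514.4 in the chow pools. The diets covered nearly the same range. The log2 fold change was -0.02 ± 0.12, and its 95% interval allowed a fold of 0.821 to 1.18 (adjusted p = 0.977, limma). The second Igfbp5 probe set, 1422313_a_at, had 189.9 ± 34.6 on the high fat diet and 199 ± 90.8 on chow (SD, n = 3 each), where chow replicate 1 reached 303.4. Its log2 fold change was 0.01 and became 0.35 without chow replicate 1.

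Igfbp7, a low-affinity relative that is deposited in vascular basement membranes, had 3 probe sets, and the 2 brighter ones had negative estimates. Probe set 1423584_at had signals of 6702.4, 6814.3 and 5474.4 in the high fat pools and 5838.3, 7476.7 and 7199.7 in the chow pools. High fat replicate 3 and chow replicate 1 were the low arrays, and the diets overlapped. Its log2 fold change was -0.11 ± 0.13, with a 95% interval from -0.40 to 0.18 (adjusted p = 0.883, limma), and leaving out high fat replicate 3 made it -0.0087, while leaving out chow replicate 1 made it -0.22. Probe set 1423585_at had 123.6, 84 and 128.6 in the high fat pools and 160, 134.7 and 128.2 in the chow pools, with overlap only between high fat replicate 3 and chow replicate 3. Its log2 fold change was -0.33 ± 0.20 (adjusted p = 0.778, limma). The third, 1437804_at, had signals of 28.7 to 45.8 on the high fat diet and 34.7 to 77.7 on chow and a log2 fold change of -0.22. It passed the filter at 40.7 through chow replicate 1, at 77.7, while the other chow pools had 34.7 and 36.4. The means were 39.8 on the high fat diet and 49.6 on chow. Its log2 fold change was 0.12 without chow replicate 1, so this probe set gives no direction.

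Igfbp2, a binding protein also released by adipocytes, had 167.8, 222.2 and 277.6 in the high fat pools and 188.1, 195.5 and 246.6 in the chow pools. The high fat pools enclosed the chow pools on both sides. This gave a log2 fold change of 0.06 ± 0.20 (adjusted p = 0.962, limma). Igfbp6, which prefers Igf2 over Igf1, had 562.5, 634.7 and 433.5 in the high fat pools and 545.7, 585.5 and 570.6 in the chow pools. Again the high fat pools held the extremes. Here the log2 fold change was -0.08 ± 0.16 (adjusted p = 0.941, limma). Igfbp3, the main carrier of Igf1 in serum, was not tested because its signals were low, 15.6 to 25 in the high fat pools and 13.6 to 41.7 in the chow pools.

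The precision of the tested members bounds what could have gone unseen on the scale of log2(signal + 6), which understates changes of low probe sets. On that scale the 95% interval stayed within a 2-fold change for 18 of 18 tested probe sets, and within a 1.5-fold change for 9 of 18. The widest limit was -0.98. The 3 probe sets not tested are outside this bound. With no filter, the interval reached 1.67 for Igf2 1415931_at and -1.07 for Igfbp3, and was -0.82 to 0.86 for Igf1r 1452108_at. The members' median within-diet SD was 0.22 on the log2 scale, against 0.23 for all probe sets tested. Their median log2 fold change of -0.13 stood beside -0.01 over all probe sets, and the median size of the fold change was 0.16 against 0.15 on the log2 scale. Of the 14 lower estimates, 6 came from Igfbp4, and 1 was Igfbp7 1437804_at, which the filter kept through chow replicate 1. Log2 fold changes below 0 made up 51.8% of all probe sets tested.

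**Figure D3:**
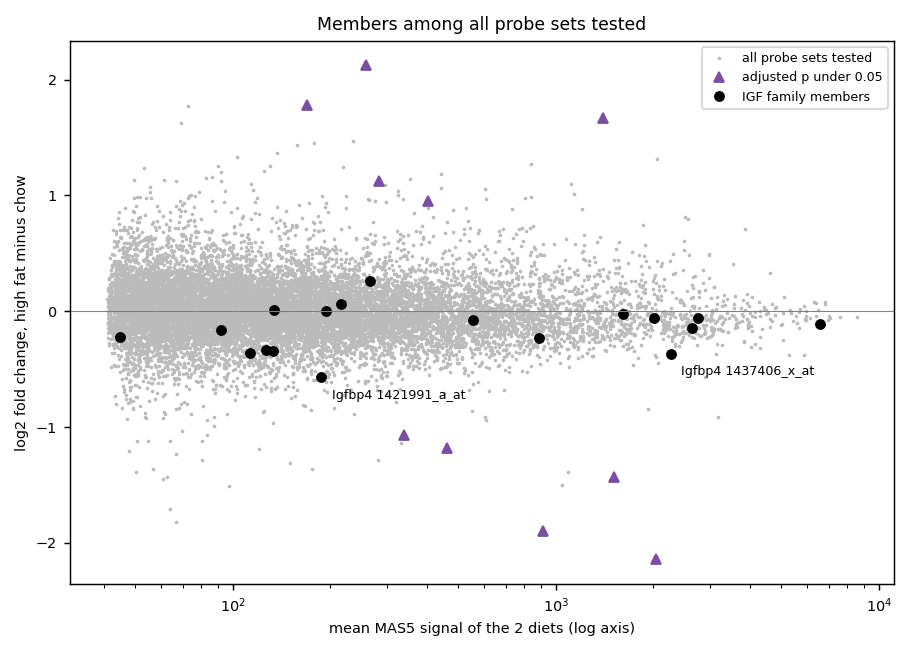
Each grey point is 1 of 13575 probe sets tested, with its mean signal of the diets on a log axis and its log2 fold change, high fat minus chow, and black circles are the 18 members. The members lie between -0.57 and 0.26, while the 10 probe sets with an adjusted p under 0.05, drawn as triangles, lie farther from 0.

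The arrays did not contribute equally. Among the 18 tested probe sets, chow replicate 1, for which no age is given, was the highest array for 7. High fat replicate 1, the pool with the unclear age and sex, was the lowest for 7. Averaged over the members and centred on the 6 arrays, the log2 signal was -0.09, -0.02 and -0.13 in the high fat pools and 0.18, 0.0037 and 0.05 in the chow pools, in replicate order. Without the Igfbp4 probe sets these means were -0.07, 0.08 and -0.17 on the high fat diet and 0.15, -0.02 and 0.03 on chow, and the diets overlapped.

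Markers of other cells differed between the diets in their means. They were read with 1 probe set per gene, as were 8327 genes in all. Of these 8327, 6.99% had an unadjusted and 0.06% an adjusted p under 0.05 (limma), and 12.6% had pools separated between the diets. Their median log2 fold change was 0.005. Of 13 macrophage markers tested, 13 had a higher mean on the high fat diet, 10 with an unadjusted p under 0.05 and 0 with an adjusted p under 0.05, and their summed signal on 15 genes was 4146.3 to 6853.9 in the high fat pools and 2918.5 to 3989.4 in the chow pools. Macrophages are a known source of Igf1. Of 9 brown adipocyte markers tested, 9 had a higher mean, 7 an unadjusted and 1 an adjusted p under 0.05, with summed signals of 12743.5 to 15149 in the high fat pools and 7591.2 to 9601.5 in the chow pools. Fabp3, a fatty acid carrier, was the gene that passed. White adipocyte markers had a higher mean for 9 of 11, 3 of them with an unadjusted p under 0.05, while Retn, the adipokine resistin, was lower with an adjusted p under 0.05 (limma), and summed signals were 15039.8 to 16301.2 in the high fat pools and 11408 to 15910.7 in the chow pools. Endothelial markers had a higher mean for 12 of 14, 3 of them with an unadjusted p under 0.05. Their summed signals were 2568.9 to 3108.4 in the high fat pools and 2405.2 to 2567.2 in the chow pools. Cardiac muscle markers had a higher mean for 12 of 12, with a median log2 fold change of 0.65 and 0 genes at an unadjusted p under 0.05, and varied widely within a diet, with summed signals of 1171.9 to 7813.1 in the high fat pools and 1129.7 to 3932.7 in the chow pools. Skeletal muscle markers had a lower mean for 3 of 5, 2 of them with an unadjusted p under 0.05, a median log2 fold change of -0.44 and their highest mean in chow replicate 1, as the members had. Their summed signals were 711 to 940.5 in the high fat pools and 784.6 to 1382 in the chow pools. Schwann and nerve markers had a higher mean for 5 of 6, with summed signals of 2683.5 to 3167.7 in the high fat pools and 2612.9 to 2923.3 in the chow pools. Of 2 lymphocyte markers tested, 1 was higher and 1 lower in the mean. Adventitial fibroblast markers, of cells that make Igfbp4 and Igfbp6, had a higher mean for 6 and a lower one for 7 of 13. Their summed signals were 16653.1 to 17463.5 in the high fat pools and 17210.5 to 18749.6 in the chow pools, although adventitia had been removed. Vascular smooth muscle markers had a lower mean for 12 of 14, 1 of them with an unadjusted p under 0.05, and summed signals of 29389 to 30176.7 on the high fat diet and 28896.8 to 35179.2 on chow. All high fat pools lay above all chow pools for 6 of 9 brown adipocyte, 6 of 13 macrophage and 5 of 14 endothelial markers. The same held for 3 of 11 white adipocyte and 1 of 6 Schwann and nerve markers. All lay below for 1 white adipocyte, 2 of 5 skeletal muscle and 2 of 13 adventitial fibroblast markers. Cardiac muscle, vascular smooth muscle and lymphocyte markers had no separated genes. In each of these lists 0 genes lay under a signal of 6 on all arrays. Apart from a fit with a cardiac marker covariate, given below, the part of these lists in the members' values was not tested.

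**Figure D4:**
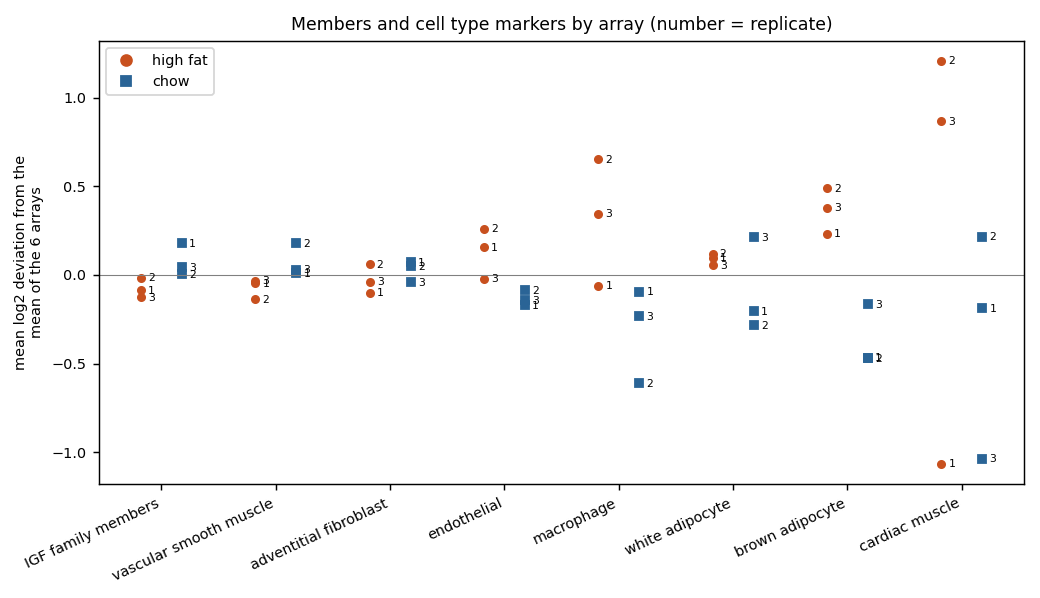
The vertical axis is the mean log2 signal centred on the 6 arrays, for the 18 member probe sets and for the tested genes of 7 cell type marker lists, with circles for high fat left of squares for chow and the replicate number beside each point. Brown adipocyte markers span -0.47 to 0.49 and cardiac muscle markers -1.06 to 1.21, while the members span -0.13 to 0.18.

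Genes around the Igf system were read from lists of related genes, with 1 probe set per gene. Over the 8327 genes so read, the pools of the diets were separated for 12.6%. None of their members had an adjusted p under 0.05, where 0.06% of 8327 genes did (limma), and an unadjusted p under 0.05 was reached by 6.99% of these genes. At that p the further family genes had 2 of 7, the growth hormone axis 3 of 12, receptor signalling 2 of 26, the proteases 1 of 11 and the genes linked to Igf2 0 of 10. Of 7 further family genes tested, 1 was higher and 1 lower at that p. Ccn3, a matricellular protein with an Igf binding protein domain, had 1878.2, 1497 and 1910 in the high fat pools and 2605.7, 2177.8 and 2393.4 in the chow pools, a log2 fold change of -0.44 ± 0.13 (adjusted p = 0.515, limma). Ccn5, a relative that acts on smooth muscle growth, had 422 ± 56.7 on the high fat diet and 327 ± 44.0 on chow (SD, n = 3 each), which gives a log2 fold change of 0.36 (adjusted p = 0.695, limma). The diets did not overlap for either gene. The median log2 fold change of this list was -0.13, against 0.01 over the 8327 genes.

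The growth hormone axis, which drives Igf1 in the liver and elsewhere, had 12 genes tested, with 1 higher and 2 lower at an unadjusted p under 0.05 and a median log2 fold change of -0.08. Ghr, the growth hormone receptor, had 558.9, 383.1 and 566.7 in the high fat pools and 725.1, 690.9 and 613.5 in the chow pools. All high fat pools lay below all chow pools, and the log2 fold change was -0.44 ± 0.17 (adjusted p = 0.639, limma). Sirpa, a membrane glycoprotein phosphorylated after growth hormone binding, had 180.0 ± 38.3 on the high fat diet and 128 ± 18.6 on chow (SD, n = 3 each), which gives a log2 fold change of 0.46 (adjusted p = 0.680, limma). Socs2, a feedback inhibitor of growth hormone signalling, had 157 ± 38.3 on the high fat diet and 239 ± 70.0 on chow, a log2 fold change of -0.57 ± 0.25 (adjusted p = 0.682, limma), and is named here after its values were seen.

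Among 26 genes of Igf1 receptor signalling, 1 was higher and 1 lower at an unadjusted p under 0.05. Mtor, the growth-controlling kinase, had 322.2, 341.9 and 403 in the high fat pools and 263.1, 259.4 and 276.3 in the chow pools, a log2 fold change of 0.40 ± 0.15 (adjusted p = 0.594, limma). Akt1, a kinase downstream of the receptor, had 314.3, 299.4 and 340.3 in the high fat pools and 482.9, 407.1 and 371.7 in the chow pools, a log2 fold change of -0.39 ± 0.15 (adjusted p = 0.633, limma). The pools of the diets did not overlap for either kinase, and the list had a median log2 fold change of -0.04.

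Of 11 genes of binding protein proteases and their inhibitors, 0 were higher and 1 lower at an unadjusted p under 0.05, with a median of -0.01. Mmp3, a matrix metalloproteinase, had 307 ± 34.1 on the high fat diet and 431 ± 80.5 on chow (SD, n = 3 each), which gives a log2 fold change of -0.47 (adjusted p = 0.600, limma). Mmp2, another matrix metalloproteinase, had 648 ± 107 on the high fat diet and 548 ± 65.0 on chow, a log2 fold change of 0.23 (adjusted p = 0.807, limma). Pappa, the gene of the Igfbp4 protease, was too low to be tested, at 8.3 to 24.9 in the high fat pools and 19.8 to 43.1 in the chow pools. Of 10 imprinted or growth genes linked to Igf2, 0 reached an unadjusted p under 0.05. Dcn, the matrix proteoglycan decorin, had 3484 ± 413 on the high fat diet and 4173 ± 350 on chow (SD, n = 3 each), which gives a log2 fold change of -0.26 (adjusted p = 0.716, limma). Plagl1, an imprinted zinc finger factor, differed by -0.49 on the log2 scale (adjusted p = 0.724, limma).

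The genes whose signal over the 6 arrays was most like that of Igf1 1437401_at were Nfatc4, Ptprf and Ywhab, with Pearson r of 0.996, 0.995 and 0.985. For Igf2 1448152_at they were Ube2f, Mvb12a and Fuca2, with r of 0.992, 0.986 and 0.985. They were the highest of 13575 probe sets over 6 arrays that share their scaling, and describe these arrays alone.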

How the data were processed

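RNA of 6 pools was measured on Affymetrix mouse arrays. Per the labels' protocols, biotinylated cRNA was made from 5 µg of RNA, and 3 aortas were pooled per array. The authors deposited a linear signal intensity for each probe set. MAS5 is the tool that the submitters' processing notes name. Its version is not given in the sources used here. Each array had a 2% trimmed mean of 150.05, so the authors' scaling was kept. Detection calls were not used here.

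The 64 controls among 22690 probe sets were dropped. The platform annotation gave 1 symbol for 20380 of the others, several for 691 and none for 1555. The test used log2(signal + 6), where 6 is the 10th percentile of the signals, and the 13575 probe sets whose mean log2 value exceeded the 40th percentile, a signal of 40.7. High fat and chow arrays were compared in limma 3.58.1 (R 4.3.3, two-sided, eBayes with trend), and p-values were Benjamini-Hochberg adjusted over these probe sets, with a threshold of 0.05. The steps were tested on simulated data. For lists, the probe set of highest mean stood for a gene. List genes absent from the annotation given were not analysed here.

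The members and lists were chosen with earlier results of these data known. The text names every member, of each list the 2 genes of smallest p, Igf2r and Insr, and for Igf1 and Igf2 the 3 genes of highest Pearson r. Genes named outside this rule, after their values were seen, are Socs2, Pappa, Igf2os, Igf1os, Igfbp1, Igfals and the markers. Alternatives changed the pseudocount (1 and 21), the filter (none, or the 60th percentile), the normalization (quantile, or equal medians), the variance model (robust, or without trend) and the summary (the mean of a gene's probe sets). Others added array weights, a block for the replicate number or a cardiac marker covariate, or left out an array. Figures were drawn with Python 3.11.15 and matplotlib 3.10.9.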

Additional observations from a re-analysis of the deposited data

How the results depend on the processing

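The count of 0 members past the threshold was the same in all 18 other settings, and so was the count of 0 genes of the related lists. At an unadjusted p under 0.05 the member probe sets numbered 1 to 3, except that with probe sets averaged per gene none had one. Igfbp4 then had an unadjusted p of 0.0567 (limma). The smallest adjusted p of a member was 0.418, for Igfbp4 1421991_a_at without chow replicate 3. That probe set kept a negative log2 fold change in every setting, from -0.71 to -0.39, and so did 1437406_x_at. Over all probe sets the count of 10 became 6 with no filter, 5 with no trend in the variance, 5 with the replicate block, 5 with the cardiac marker covariate, 6 where probe sets were averaged per gene, and 5 to 16 when 1 array was left out.

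Some estimates of members changed sign. Igf2 1448152_at was -0.034 with equal medians, -0.051 with array weights, -0.082 with the cardiac covariate and -0.083 to 0.12 without 1 array. Igfbp5 1422313_a_at was -0.040 with equal medians and -0.19 to 0.35 without 1 array. Igfbp5 1452114_s_at was 0.0076 with the cardiac covariate and -0.077 to 0.012 without 1 array. Igfbp2 was -0.0015 with array weights, -0.049 with the cardiac covariate and -0.11 to 0.25 without 1 array. Igfbp4 1423757_x_at was 0.049 with the cardiac covariate and -0.15 to 0.041 without 1 array. Without 1 array, Igf1 1437401_at lay between -0.026 and 0.48, Igf1 1419519_at between -0.38 and 0.079, Igfbp6 between -0.20 and 0.075 and Igfbp7 1437804_at between -0.40 and 0.12. Of those that kept their sign, Igf1r 1426565_at lay between -0.53 and -0.24, Igfbp7 1423585_at between -0.44 and -0.15, and Igfbp4 1421992_a_at between -0.31 and -0.13. The cause was not tested.

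Samples with the same replicate number did not deviate together in every pair (correlations of 0.03, 0.17 and -0.11, against -0.16 to 0.14 for unlike numbers). So few pairs cannot show whether the numbers mark pairs. The main test did not pair the arrays, and the block changed no call of a member. With no filter, Igf2 1415931_at, Igf1r 1452108_at and Igfbp3 had log2 fold changes of 0.66, 0.02 and -0.25 (adjusted p = 0.885, 0.995 and 0.946, limma). Signals this low cannot be separated from background here, since no detection calls were used. The number of arrays limits the precision.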

Other observations

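The array also read a transcript from the opposite strand of a member. Igf2os, the antisense gene of Igf2, had signals of 83.4, 65.5 and 41 in the high fat pools and 43.3, 59 and 30.6 in the chow pools, with overlap between the diets. Its log2 fold change was 0.45 ± 0.30 (adjusted p = 0.798, limma), and it is named after its values were seen. Igf1os, the antisense gene of Igf1, was not tested, at 1.9 to 4.3 on the high fat diet and 1.3 to 2 on chow. Igfbp1 and Igfals, whose products come mainly from the liver, had signals of 7.7 to 20.9 and 3.7 to 15 in the high fat pools and 13 to 26.6 and 2.7 to 23.1 in the chow pools, and were not tested.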
